A study of Homo sapiens with 26 samples.

Results

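The 9 genes examined here are ESR1, PGR, GATA3, GREB1, TFF1, XBP1, KLK3, TMPRSS2 and FKBP5, which are known for depending on FOXA1 in breast or prostate cells. They were taken from 20136 protein-coding genes with distinct symbols for that reputation, and the rule itself uses no peak value. A peak was assigned to a gene when it overlapped the gene body, or 50 kb on either side, by at least 1 bp. By this rule 82 of the 155652 peaks in the FOXA1 list belonged to the 9 genes. HALO-bound chromatin of BJ cells, a laboratory line of human skin fibroblasts, had been immunoprecipitated and sequenced (ChIP-seq), and peaks mark where a tagged protein was enriched. The groups are HALO-tagged FOXA1, its variants FOXA1dbd, FOXA1nhaa and FOXA1rraa, and HNF4A, each expressed ectopically for 48 hours. The labels do not describe what was altered in a variant. Each group is represented by 1 full peak list, so values have no replicate error and no difference between groups was tested. Intervals are 95% intervals that cover counting error over peaks only.

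FOXA1 is a forkhead transcription factor that can bind its sites in compacted chromatin and is therefore called a pioneer factor. In luminal breast cells it marks enhancers at which the estrogen receptor binds after estrogen, and in prostate cells it is known for a like role at androgen-induced genes. Fibroblasts are not the tissue in which these 9 genes are usually studied. Peak lists hold no expression, so the activity of the genes and the identity of the cells were not checked here.

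The lists were of mixed origin, and this touches the overlaps described further on. The 82 FOXA1 rows, the 15 FOXA1dbd rows and the 22 HNF4A rows each carried a single prefix, different for each list. Of the 62 FOXA1nhaa rows 60 carried one prefix and 2 another. Of the 43 FOXA1rraa rows at the 9 genes, 12 were also rows of the FOXA1 list, 22 were also rows of the FOXA1nhaa list and 9 carried the prefix Nonspecific_FOX. FOXA1 rows were thus 27.9% of the FOXA1rraa rows here and 32.6% of the complete FOXA1rraa list. Whether the FOXA1rraa list stands for FOXA1rraa libraries cannot be told from the files, so its values describe the list only. Sequencing depth cannot be read from the lists.

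FOXA1 peaks were found at 8 of the 9 genes, compared with 87.1% of protein-coding genes. The gene without a peak was TFF1. FOXA1nhaa had peaks at all 9 genes (81.8% of protein-coding genes), FOXA1rraa at 7 (75.0%), HNF4A at 6 (83.6%) and FOXA1dbd at 4 (59.7%). FOXA1nhaa was thus the only list with a peak in the window of TFF1, and FOXA1dbd had none at GATA3, GREB1, TFF1, KLK3 and TMPRSS2. Long genes have more room for peaks, so counts were also divided by the length of the window. Over the 9 windows, which span 1901 kb, FOXA1 had 4.31 peaks per 100 kb (exact Poisson interval 3.43 to 5.35). The median of the 9 genes was 3.60 FOXA1 peaks per 100 kb, and the median of all protein-coding genes was 4.01. Only ESR1, XBP1 and FKBP5 lay above that median. The 62 FOXA1nhaa peaks were 0.756 of the FOXA1 count, against 0.678 for the complete lists. For FOXA1dbd, with 15 peaks, the ratio was 0.183 against 0.185. For FOXA1dbd the ratio was thus near that of the complete lists. FOXA1rraa had 0.524 as many peaks as FOXA1 here and 0.457 in the complete lists, and HNF4A 0.268 and 0.246. The complete lists are not limited to gene windows, so these ratios do not compare the 9 genes with other genes. By window, the median of the 9 genes was 0.8727 HNF4A peaks per 100 kb, below the 2.299 of all protein-coding genes. For FOXA1rraa these medians were 1.199 and 1.713, for FOXA1nhaa 2.311 and 2.625, and for FOXA1dbd 0 and 0.7443. None of these differences was tested.

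**Figure D1:**
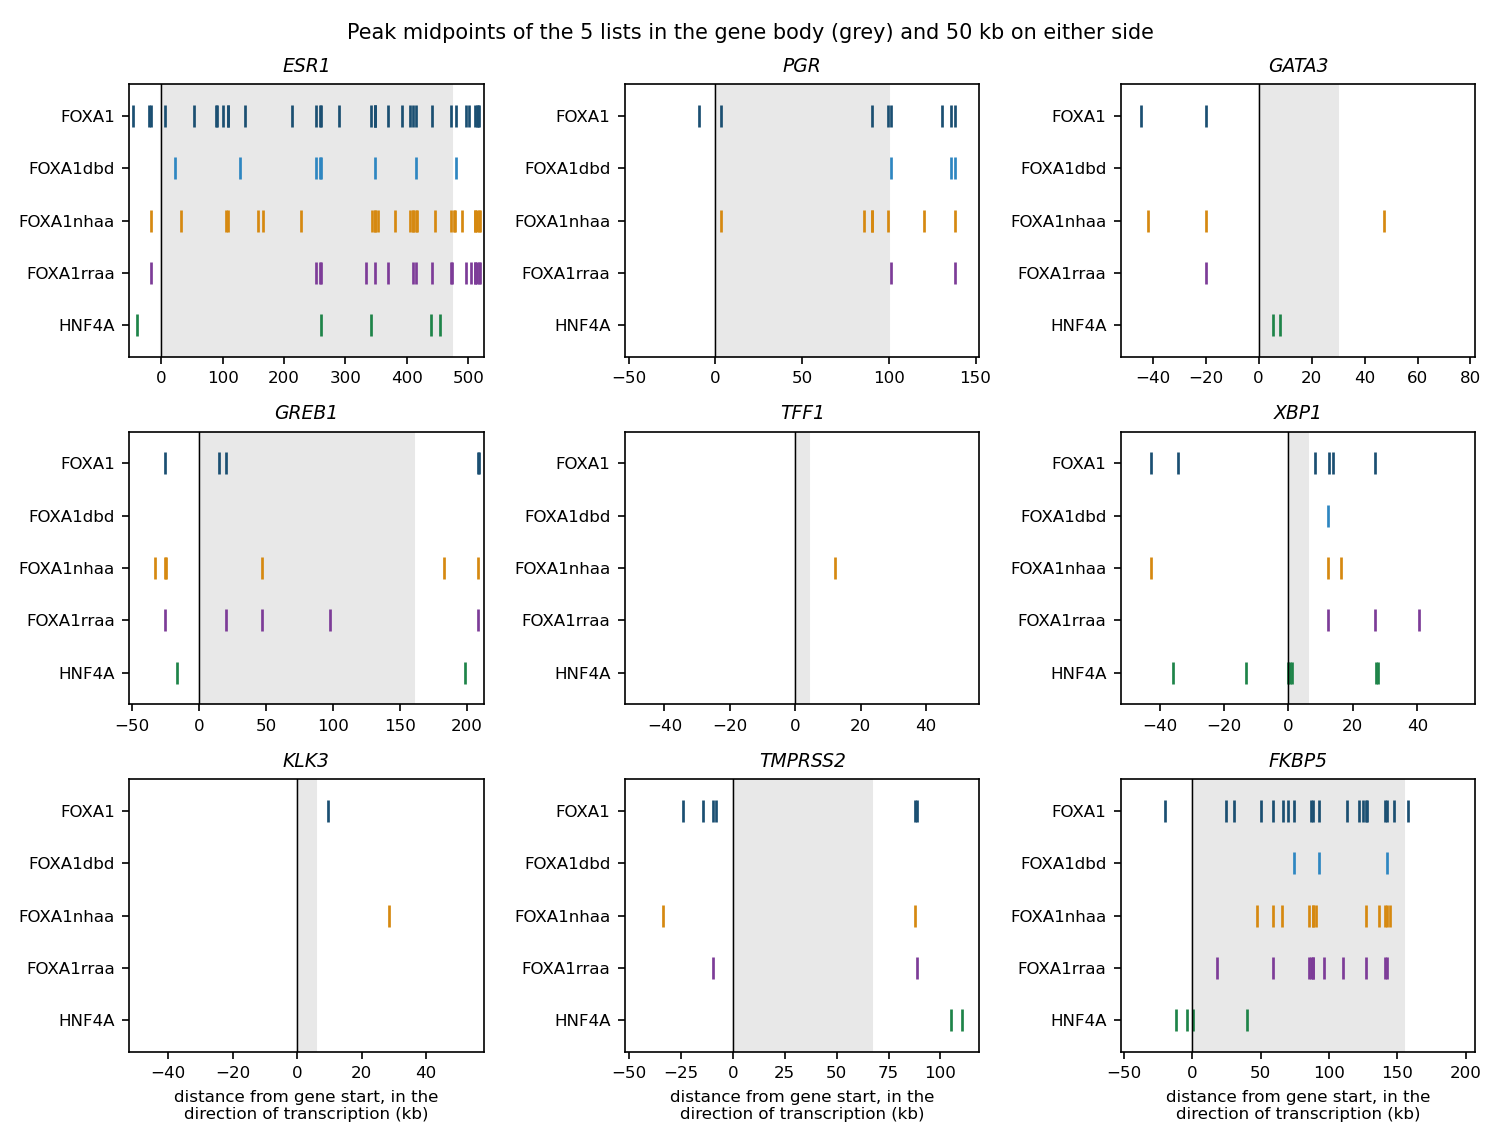
Midpoints of the peaks of each list (rows, 1 tick per peak) against the distance from the gene start in kb, in the direction of transcription, for each of the 9 genes. The grey area is the gene body; FOXA1 ticks are frequent in ESR1 (34) and FKBP5 (20), and TFF1 has none.

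The 2 receptor genes both held FOXA1 peaks, at different densities. ESR1, which encodes estrogen receptor alpha, lies on chromosome 6 (151977826 to 152450754, hg19, plus strand), and its window of 572.9 kb held 34 FOXA1 peaks. That is 5.93 per 100 kb, at percentile 61.9 of protein-coding genes. Of these peaks 24 had their midpoint in the ESR1 body, 3 lay upstream and 7 downstream. Their scores ranged from 40 to 343 with a median of 106.5, below the median of 124 in the FOXA1 list. The same window held 8 FOXA1dbd, 27 FOXA1nhaa, 19 FOXA1rraa and 5 HNF4A peaks. Both rows with the score of 343, which are pieces of 1 peak, lay in an intron of the neighbouring gene SYNE1, 516.5 and 517.2 kb from the ESR1 start. Within ESR1 itself the highest score was 215, at an intronic peak 347.5 kb from the start (chr6:152325129-152325472). FOXA1dbd overlapped it, and so did 1 row that stands in both the FOXA1nhaa and the FOXA1rraa list.

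An intronic stretch of ESR1 about 252 to 260 kb from the gene start was where FOXA1dbd peaks lay closest together. It held 3 FOXA1 peaks with scores of 156, 145 and 40, and FOXA1dbd and FOXA1rraa overlapped each of them. FOXA1nhaa overlapped 0 of the 3. The FOXA1dbd peak over the second of these scored 209, the highest FOXA1dbd score at any of the 9 genes, at an authors' fold enrichment of 11.02. The 3 FOXA1rraa rows here are rows of the FOXA1 list.

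PGR, the progesterone receptor gene and a classical target of the estrogen receptor, lies on chromosome 11 (100900355 to 101000544, minus strand). Its window held 8 FOXA1 peaks, at percentile 49.9 of protein-coding genes by density. The scores ran from 38 to 219 with a median of 90.5, and 2 of the 8 exceeded the median of the list. The peak with a score of 219 lay in a PGR intron 90.3 kb from the gene start. The peak with the lowest score, 38, was 3.2 kb inside the gene and 438 bp from the start of an internal PGR transcript, and FOXA1nhaa overlapped it. FOXA1dbd had 3 peaks here, all beyond the 3′ end of PGR and 2 of them in ARHGAP42. HNF4A had none.

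The 2 transcription factor genes differed. GATA3, a zinc finger factor of luminal breast cells, lies on chromosome 10 (8087341 to 8117161, plus strand). It had 2 FOXA1 peaks, both upstream, 44.3 and 19.8 kb from its start, with scores of 112 and 75. The nearer of them was overlapped by FOXA1nhaa and FOXA1rraa, and the farther one, in an intron of TAF3, by none of the variants. At 1.54 peaks per 100 kb, GATA3 was at percentile 26.0. XBP1, a factor of the unfolded protein response and an estrogen target, lies on chromosome 22 (29190543 to 29196585, minus strand). It had 6 FOXA1 peaks, or 5.66 per 100 kb, at percentile 60.2. Its scores were the highest as a group, from 98 to 333 with a median of 179, and 5 of the 6 exceeded the median of the list. None of the 6 lay in the XBP1 body. The peak scoring 333 was 12.5 kb from the XBP1 start, on the downstream side, in an annotated exon of CCDC117 (chr22:29183903-29184363), and it was overlapped by FOXA1dbd and by 1 row shared by the FOXA1nhaa and FOXA1rraa lists.

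GREB1 and TFF1 are genes used as reporters of estrogen action in breast cells. GREB1, on chromosome 2 (11622467 to 11782914, plus strand), had 5 FOXA1 peaks in 260.4 kb, or 1.92 per 100 kb, at percentile 31.9. Their scores were 44, 40, 101, 128 and 52, and only 1 exceeded the median of the list. Just 2 of the 5 lay inside GREB1, 15.3 and 20.3 kb from its start. The FOXA1nhaa peak of GREB1 at 47.4 kb (score 189, fold enrichment 9.32) had no FOXA1 peak over it. TFF1, which encodes a secreted trefoil peptide, lies on chromosome 21 (43782391 to 43786644, minus strand). Its window of 104.3 kb also holds TFF2, TFF3, TMPRSS3 and UBASH3A. A single peak of any list fell there, a FOXA1nhaa peak with a score of 104 that lay between genes 12.2 kb from the TFF1 start.

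KLK3, TMPRSS2 and FKBP5 are androgen-induced in prostate cells, and FKBP5 also responds to glucocorticoids and progestins. KLK3, the gene of prostate-specific antigen, lies on chromosome 19 (51358171 to 51364020, plus strand). Its window, which holds 4 other kallikrein genes, had 1 FOXA1 peak with a score of 74, in an intron of KLK2 9.5 kb from the KLK3 start. FOXA1nhaa had 1 peak there, 28.6 kb from the start, and the other lists had 0. TMPRSS2, a membrane serine protease gene on chromosome 21 (42836227 to 42903043, minus strand), had 6 FOXA1 peaks and none in its body. Of these, 4 lay upstream between genes, 8.1, 9.8, 14.3 and 24.0 kb from the start, with scores of 101, 132, 128 and 65. The other 2 were in the neighbouring interferon-induced gene MX1, with scores of 166 and 38. FOXA1rraa had a peak over 1 of the 4 upstream FOXA1 peaks, and that row is itself a row of the FOXA1 list.

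FKBP5, which encodes a cochaperone of steroid receptors, lies on chromosome 6 (35541362 to 35696360, minus strand) and was the densest of the 9 genes. It had 20 FOXA1 peaks in 255.0 kb, or 7.84 per 100 kb, at percentile 70.9. The midpoints of 18 lay in the gene body, and 10 of the 20 exceeded the median score of the list. Scores ran from 43 to 268 with a median of 122.5. The peak scoring 268 lay in an intron 74.5 kb from the gene start, and among the variants only FOXA1dbd overlapped it. The peak scoring 262, 142.8 kb from the start, was overlapped in the same manner as the XBP1 peak, by FOXA1dbd and a row of both other lists. FKBP5 was also the densest of the 9 genes for FOXA1rraa, with 11 peaks or 4.31 per 100 kb. For FOXA1nhaa it had 12 peaks or 4.71 per 100 kb, as many per 100 kb as ESR1.

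**Figure D2:**
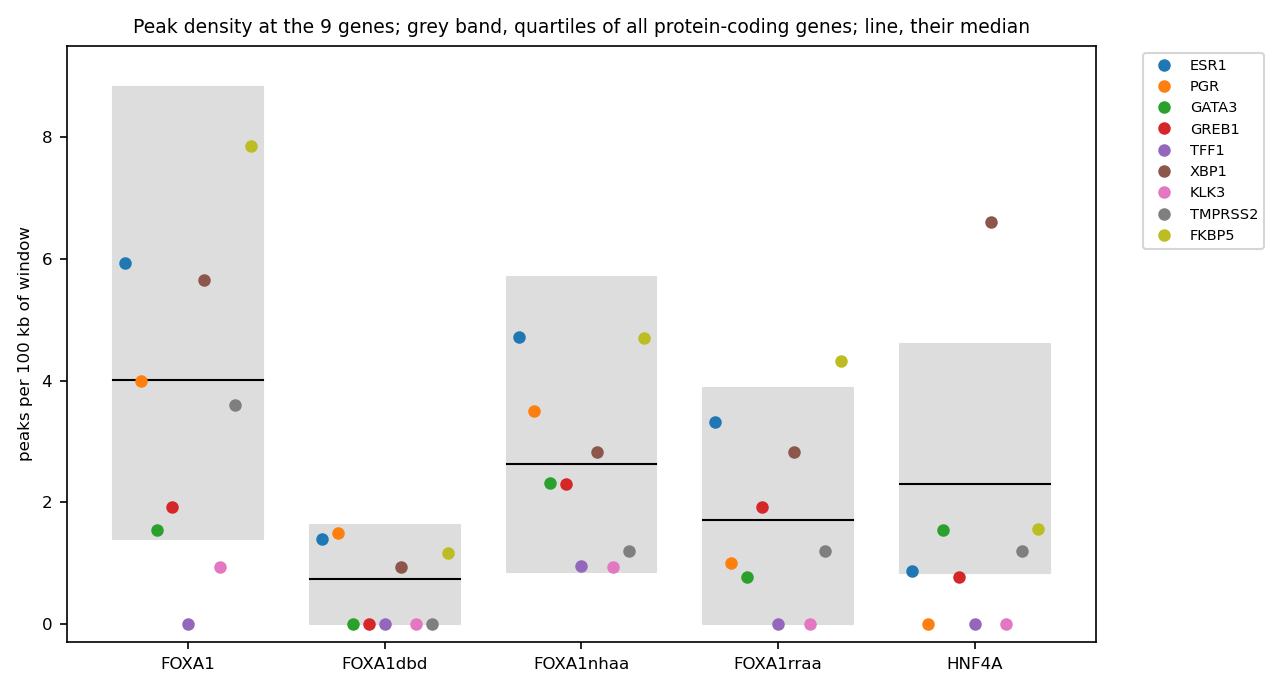
Peaks per 100 kb of window (vertical axis) at each of the 9 genes for each list, over the quartile band and median line of all protein-coding genes. For FOXA1 the highest point is FKBP5 at 7.84 and the line is at 4.01; for HNF4A only XBP1, at 6.60, lies above the line.

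The position of the peaks relative to the gene was examined next. No FOXA1 peak was centred within 1000 bp of the annotated start of any of the 9 genes, compared with 7.37% of protein-coding genes that had one. The same was true of FOXA1dbd (1.78% of protein-coding genes), FOXA1nhaa (4.36%) and FOXA1rraa (2.71%). With 9 genes, counts of 0 are near these shares, and nothing particular to the genes is read from them. The start here is the outermost 5′ end of the gene. At PGR a FOXA1 peak lay 438 bp, and a FOXA1nhaa peak 554 bp, from an internal transcript start, and neither is in these counts. Within 10 kb of a start there were 7 FOXA1 peaks, at ESR1 (1), PGR (2), XBP1 (1), KLK3 (1) and TMPRSS2 (2). No share over all protein-coding genes stands beside this count, and nothing particular to the genes is read from it. A FOXA1 peak overlapped the body of 4 of the 9 genes, namely ESR1, PGR, GREB1 and FKBP5, compared with 54.4% of protein-coding genes. The body was overlapped by FOXA1nhaa at 4 genes (49.7%), by HNF4A at 4 (56.8%), by FOXA1rraa at 3 (44.2%) and by FOXA1dbd at 2 (31.4%). The 4 genes with FOXA1 in the body are the longest of the 9, at 100.2 kb or more. In 6 of the 8 genes with a peak, the peak of highest score lay in the body of another protein-coding gene and not in the gene itself. The same held for 39.4% of all protein-coding genes with a FOXA1 peak in their window, and for 68.8% the peak of highest score lay outside the own body in any position. The exceptions were PGR and FKBP5. For 52 of the 82 peaks the nearest protein-coding transcript start belonged to the gene in question. Of the 82 peaks 22 lay in the body of another protein-coding gene. A window therefore describes a neighbourhood, and the lists do not tell which gene a peak acts on. Neither count has a share over all FOXA1 peaks beside it, and nothing particular to the genes is read from either. By position, 52 of the 82 midpoints were in introns, 14 between genes, 10 in exons and 6 within 1000 bp of a transcript start (7.32%, compared with 6.16% of all FOXA1 peaks). Of the variants' peaks, 1 of 15 FOXA1dbd (6.17% of its list), 3 of 62 FOXA1nhaa (5.87%) and 5 of 43 FOXA1rraa peaks (6.07%) lay within 1000 bp of a transcript start.

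The authors' score ranks peaks within a list. Over the 82 FOXA1 peaks it had a median of 108.5 and a range of 38 to 343, and in the complete list a median of 124 and a highest value of 1518. Of the 82 peaks 34 exceeded the median of the list and 3 were in its top 10% by score, which holds 10.1% of all FOXA1 peaks because of ties. Those 3 were both SYNE1 rows and the CCDC117 peak of the XBP1 window, none of them in the body of a hormone-response gene. The median width was 254.5 bp, compared with 300 bp in the list.

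**Figure D3:**
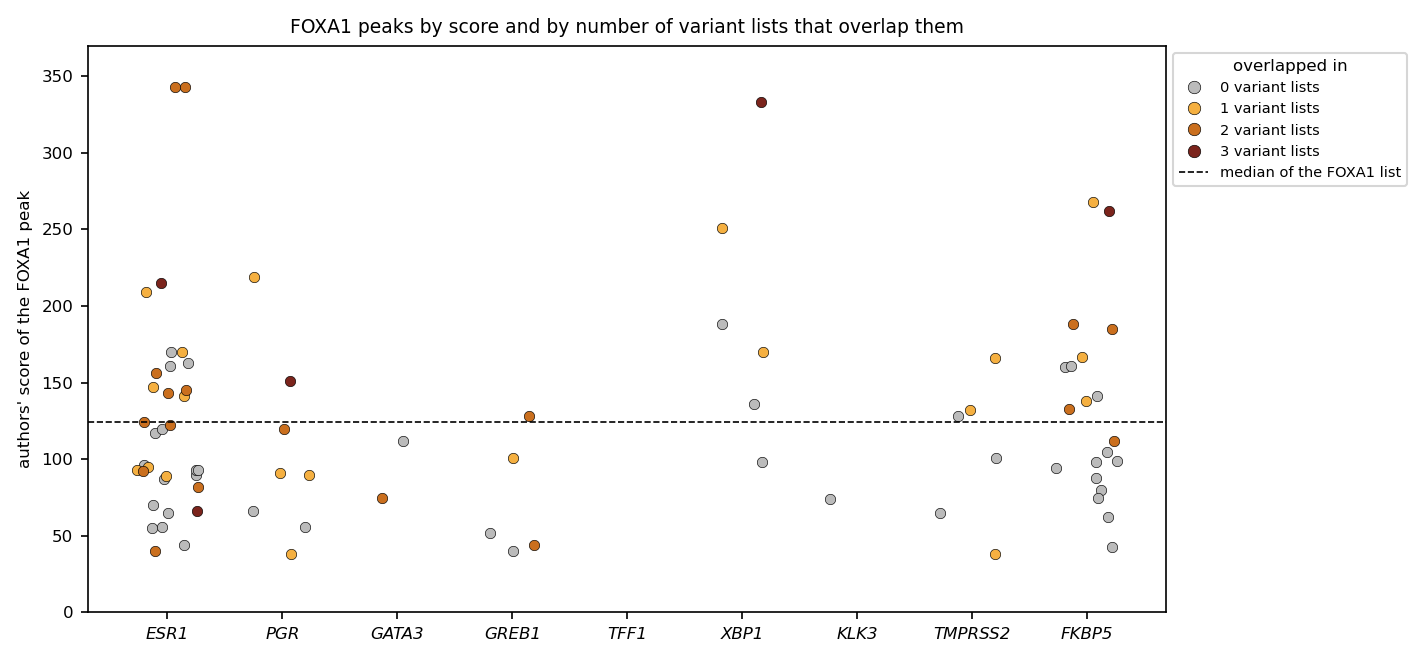
Authors' score of each FOXA1 peak (vertical axis) by gene, with the colour giving the number of variant lists, 0 to 3, that overlap it; the dashed line is the median of the FOXA1 list, 124. Points above 300 occur at ESR1 and XBP1 only.

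The variants were compared with FOXA1 by asking which of the 82 FOXA1 peaks each also covered. FOXA1dbd overlapped 13, or 15.9% (exact interval 8.72 to 25.6), compared with 17.3% of all FOXA1 peaks. FOXA1nhaa overlapped 27, or 32.9% (22.9 to 44.2), compared with 39.7%. FOXA1rraa overlapped 31, or 37.8% (27.3 to 49.2), compared with 39.9%, and without the rows that are FOXA1 rows 19, or 23.2% (14.6 to 33.8), compared with 25.0%. Each of those 19 peaks was under a row that also stands in the FOXA1nhaa list, so neither value is a FOXA1rraa measurement independent of FOXA1 and FOXA1nhaa. Each of the intervals for shares of the 82 peaks includes the value of the complete list. By this measure a departure of the 82 peaks, taken as a pool, from other FOXA1 sites was not detectable. ESR1 supplied 34 of the 82 peaks and FKBP5 20, so the pooled shares describe mainly these windows. The intervals treat neighbouring peaks as independent. None of the variants overlapped 39 of the 82 peaks (47.6%, compared with 41.5%), and rows of all 3 lists overlapped 5 (6.10%, compared with 8.21%). At each of the 5 the FOXA1rraa row was the FOXA1nhaa row, so the overlap rests on 2 separate calls and not 3. Those 5 were in the windows of ESR1 (2), PGR (1), XBP1 (1) and FKBP5 (1). Their median score was 215, and that of the 39 peaks without a variant was 93. In the complete list these medians were 231 and 98. Overlapped peaks were also wider, with a median of 354 bp for those under FOXA1nhaa and 234 bp for the others, and the part of width in the overlap was not tested.

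**Figure D4:**
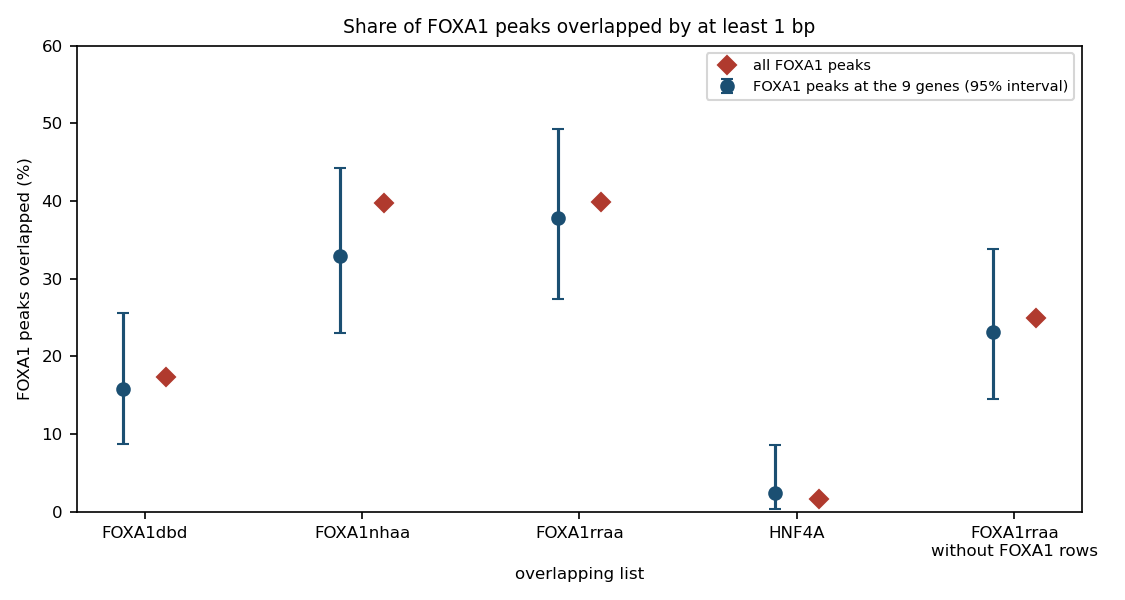
Share of FOXA1 peaks, in percent, overlapped by at least 1 bp by each other list, for the 82 peaks of the 9 genes (circles, bars are exact 95% intervals) and for all FOXA1 peaks (diamonds). Every bar spans its diamond, for instance 22.9 to 44.2 around 39.7 for FOXA1nhaa.

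The variants also had peaks where FOXA1 had none. Of the 62 FOXA1nhaa peaks 29 lay on a FOXA1 peak, or 46.8% (34.0 to 59.9), compared with 58.4% of the complete FOXA1nhaa list. The other 33 included the FOXA1nhaa peak that scored highest at the 9 genes, 274 at a fold enrichment of 10.2, in a PGR intron (chr11:100914401-100915233). FOXA1dbd had 13 of its 15 peaks on a FOXA1 peak (86.7%, 59.5 to 98.3, compared with 96.2%). The other 2 were in introns of ESR1, 22.6 and 127.8 kb from its start. For FOXA1rraa 31 of 43 peaks lay on a FOXA1 peak (72.1%, 56.3 to 84.7, compared with 86.8%), of which 12 were FOXA1 rows themselves and 19 were FOXA1nhaa rows. Here the share of the complete list lies above the interval. The interval covers counting error over rows of mixed origin only, and the difference was not tested. Of the 9 Nonspecific_FOX rows 0 lay on a FOXA1 peak, and the other 3 outside it were FOXA1nhaa rows.

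HNF4A, a nuclear receptor factor of liver and gut, rarely overlapped FOXA1 peaks, both at these genes and in the complete lists. It had 22 peaks, of which 11 (50%) were centred within 1000 bp of a protein-coding transcript start, compared with 33.7% of the complete HNF4A list. No interval is given for this share, and 5 of the 11 peaks were in the XBP1 window. Of the 82 FOXA1 peaks 2, or 2.44% (0.297 to 8.53), were overlapped by HNF4A, compared with 1.68% of all FOXA1 peaks. Counted from HNF4A, 2 of its 22 peaks lay on a FOXA1 peak, or 9.09% (1.12 to 29.2), compared with 6.76% of its list. Both intervals include the share of the complete list, and nothing particular to the genes is read from the overlap. The 2 overlapped FOXA1 peaks were an intronic peak of ESR1 (score 40) and one near the CCDC117 start in the XBP1 window (score 170). XBP1 had 7 HNF4A peaks, or 6.60 per 100 kb at percentile 86.5, and was the only one of the 9 genes above the HNF4A median of 2.299. Of these, 2 were centred within 1000 bp of the XBP1 start, with scores of 276 and 203, where FOXA1 had none. The highest HNF4A score in that window, 344 with a fold enrichment of 12.4, was at the CCDC117 start. Of the 4 HNF4A peaks at FKBP5 the highest score was 127, 40.3 kb from the gene start and 639 bp from another FKBP5 transcript start. A peak scoring 117 lay 0.5 kb inside the gene. At GATA3 both HNF4A peaks were in the gene body, where FOXA1 had no peak. They lay 5.5 and 8.2 kb from the gene start, with scores of 210 and 244. The peak scoring 244 was centred 5 bp from the start of an internal GATA3 transcript. The highest scores at the other genes were 111 at ESR1, 81 at GREB1 (at the E2F6 start) and 117 at TMPRSS2 (near an MX1 transcript start). HNF4A peaks centred within 1000 bp of the gene start, its outermost 5′ end, were thus present at 2 of the 9 genes, compared with 38.8% of protein-coding genes. These were XBP1 and FKBP5, and the GATA3 peak at an internal transcript start is not in this count.

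The sequence at the FOXA1 peaks was searched for the forkhead core, TGTTTAC or TATTTAC, on both strands and without mismatch in the central 200 bp. These 200 bp lie around the midpoint whatever the width, so they run past the ends of narrower peaks, and a match can lie outside the called peak. The core was present in 19 of the 82 peaks, or 23.2% (14.6 to 33.8), compared with 18.2% of all FOXA1 peaks. ESR1 had 11 of the 19, FKBP5 4, PGR 2, GREB1 1 and XBP1 1. TGTTTAC occurred in 7 peaks (compared with 7.33% of all FOXA1 peaks) and TATTTAC in 12 (compared with 11.8%). The peaks of highest score at FKBP5 and GREB1 held a core, as did 1 of the 2 rows that scored highest at ESR1. The stretches below show how the core sits in 5 peaks, of which those of PGR and ESR1 were chosen after their values were seen. They are the central 200 bp of FOXA1 peaks on the plus strand of hg19, in lower case, with the forkhead core in capitals, which reads GTAAACA or GTAAATA where it lies on the minus strand. The FKBP5 stretch is chr6:35621778-35621977 (intron, peak score 268), the GREB1 stretch chr2:11830447-11830646 (LPIN1 intron, 128), and the PGR stretch chr11:100898944-100899143 (between genes, 120, a core on each strand). The ESR1 intron stretch is chr6:152235746-152235945 (score 145, under the FOXA1dbd peak of highest score), and the SYNE1 intron stretch is chr6:152494967-152495166 (score 343).
FKBP5 intron: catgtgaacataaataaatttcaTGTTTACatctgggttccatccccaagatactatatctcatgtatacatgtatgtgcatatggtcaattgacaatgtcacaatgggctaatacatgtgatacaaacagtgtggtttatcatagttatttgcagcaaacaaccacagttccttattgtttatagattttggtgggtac
GREB1 window, LPIN1 intron: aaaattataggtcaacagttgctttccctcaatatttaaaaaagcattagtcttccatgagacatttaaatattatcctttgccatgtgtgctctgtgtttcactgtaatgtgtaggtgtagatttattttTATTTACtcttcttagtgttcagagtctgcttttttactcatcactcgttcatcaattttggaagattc
PGR, beyond the 3′ end: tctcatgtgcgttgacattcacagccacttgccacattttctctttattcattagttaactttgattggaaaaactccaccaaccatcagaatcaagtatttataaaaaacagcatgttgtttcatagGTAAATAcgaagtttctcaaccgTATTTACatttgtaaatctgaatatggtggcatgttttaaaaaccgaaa
ESR1 intron: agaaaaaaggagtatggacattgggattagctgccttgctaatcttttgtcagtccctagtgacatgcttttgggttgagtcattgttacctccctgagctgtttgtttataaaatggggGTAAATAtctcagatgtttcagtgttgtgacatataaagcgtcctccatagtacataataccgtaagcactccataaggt
ESR1 window, SYNE1 intron: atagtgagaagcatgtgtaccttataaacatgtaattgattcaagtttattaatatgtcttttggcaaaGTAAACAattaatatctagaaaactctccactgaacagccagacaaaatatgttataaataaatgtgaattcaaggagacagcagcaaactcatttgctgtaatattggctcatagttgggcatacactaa
FOXA1dbd overlapped the peaks shown from the FKBP5 intron, the PGR flank and the ESR1 intron, and FOXA1nhaa those in LPIN1 and SYNE1.

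Motifs of hormone receptors and of other factors were searched in the same way. The estrogen response element, GGTCA and TGACC separated by any 3 bases, was in 0 of the 82 peaks (interval up to 4.399%) and in 0.00835% of all FOXA1 peaks. The nuclear receptor hexamer AGGTCA, which shares 5 letters with that element, was in 8 peaks, or 9.76% (4.31 to 18.3), compared with 6.19%. The hexamer AGAACA, bound by progesterone and glucocorticoid receptors, was in 17 peaks, or 20.7% (12.6 to 31.1), compared with 18.0%. The AP-1 site TGANTCA was in 19 peaks, or 23.2% (14.6 to 33.8), compared with 15.0%, and 11 of these were at ESR1. The GATA site AGATAA was in 13 peaks, or 15.9% (8.72 to 25.6), compared with 19.1%, and the HNF4 core CAAAGTCCA in 1 peak, compared with 0.261%. The interval for each of these motifs includes the share of the complete list. A match is a description of letters and not of a bound site. The single FOXA1 peak of the KLK3 window had no forkhead core in its centre and 1 AGAACA, shown in capitals in its central 200 bp (chr19:51367581-51367780, plus strand, KLK2 intron). This peak was picked outside the rule for shown sequences, which calls for a forkhead core, and is 1 of the 17 peaks with AGAACA.
KLK3 window, KLK2 intron: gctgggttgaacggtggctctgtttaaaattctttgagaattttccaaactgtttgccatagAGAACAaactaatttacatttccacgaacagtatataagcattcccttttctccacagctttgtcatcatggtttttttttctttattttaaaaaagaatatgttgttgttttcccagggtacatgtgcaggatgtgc

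Other hormone-response genes were set beside the 9 from lists of textbook targets. Of 15 estrogen-response genes of breast cells 14 had a FOXA1 peak (87.1% of protein-coding genes), with a median of 4.26 FOXA1 peaks per 100 kb. The gene without one was TFF3, whose window overlaps TFF1. Values ranged up to 16.1 for NRIP1, a corepressor of nuclear receptors, and 14.1 for AGR2, a disulfide isomerase of secretory cells. CCND1, the cyclin D1 gene, had 1 FOXA1 peak or 0.883 per 100 kb. Of 13 androgen-response genes all had a FOXA1 peak, with a median of 6.55 per 100 kb, from 0.840 at KLK2, whose window overlaps KLK3, to 18.1 at ELL2, an elongation factor gene. The 7 glucocorticoid-induced genes all had FOXA1 peaks, with a median of 6.79 per 100 kb. The medians of these 3 lists exceeded the 3.60 of the 9 genes and the 4.01 of all protein-coding genes, and none of these differences was tested. For FOXA1dbd the lists had peaks at 7 of 15, 10 of 13 and 6 of 7 genes in the same order, compared with 59.7% of protein-coding genes. For HNF4A the counts were 13 of 15, 11 of 13 and 7 of 7, compared with 83.6%. Nothing particular to these short lists is read from the counts.

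The protein-coding genes whose densities in the 5 lists were closest to the median of the 9 genes were TMEM47, TMEM174 and DEFB126. Closeness was the Euclidean distance of log2(peaks per 100 kb + 0.5) over the 5 lists, and was 0.297, 0.316 and 0.324 for these genes. TMEM47 had 5 FOXA1, 3 FOXA1nhaa, 2 FOXA1rraa and 1 HNF4A peaks and no FOXA1dbd peak. With so few peaks per gene, such a likeness is a description of counts only.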

How the data were processed

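The 26 samples of BJ fibroblasts are 14 ChIP-seq libraries made with a HALO antibody and 12 inputs, per the labels. For 5 constructs 1 full peak list each was analysed, and a down-sampled FOXA1 list was an alternative. The 6 samples of tagged histone H2B were not used here. The submitters' processing notes list Bowtie2 2.3.4.1, Picard, GATK 4.2.6.0, bedtools 2.27.1, MACS2 2.2.7.1 and deepTools 3.5.0 with build hg19. Each construct has 2 immunoprecipitated libraries, and whether they were pooled before peak calling is not given in the sources used here. The deposited lists give the authors' score per peak and, except for FOXA1, a fold enrichment ratio, a −log10 p-value and a −log10 q-value. They give no counts, so depth is unknown.

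Rows with equal coordinates were counted once. Windows used GENCODE 44 lifted to GRCh37, with the gene start at the 5′ end of the gene, and the reference genome gave the sequences. Shares have exact Clopper-Pearson intervals and densities exact Poisson intervals (scipy 1.17.1), at 95%. Peaks of 1 list are not replicates, and no test was run. The code was tested on simulated data and gave 0 wrong answers in 13600 checks. The 9 genes, the other gene lists and the rules were chosen with earlier results of these data known. The rule named all 9 genes and, per gene, the FOXA1 peaks of highest score, nearest the gene start and of highest score in all 3 variants, and the HNF4A peak of highest score. Alternatives were other windows, overlap rules, score thresholds and row handling. A further gene list is not reported here.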

Additional observations from a re-analysis of the deposited data

How the results depend on the processing

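No paired analysis was possible because replicates are not separated in the peak lists (1 full list per construct, plus the down-sampled FOXA1 list), and leaving out a replicate was not possible either. Joining FOXA1 rows of 1 peak name was chosen after the data were seen. Under these alternatives 62 recomputed totals and shares stayed within their interval (counts within 1.5 times) and 21 moved, as did 29 of the FOXA1 counts per gene, while 43 of those stayed. GATA3 had 0 FOXA1 peaks with 10 kb and 7 with 100 kb on either side, XBP1 3 and 13, and GREB1 2 and 8. With gene bodies alone, fewer bases were searched, and the counts were 47 peaks for FOXA1, 36 for FOXA1nhaa, 24 for FOXA1rraa and 11 for HNF4A, while the genes with a peak numbered 4 for FOXA1, 2 for FOXA1dbd, 4 for FOXA1nhaa and 3 for FOXA1rraa. With 10 kb on either side there were 40 FOXA1nhaa, 28 FOXA1rraa and 12 HNF4A peaks, and with 100 kb 37 HNF4A peaks. Keeping the higher-scoring 50% of peaks in each list lowers the counts by construction. It left 34 FOXA1, 9 FOXA1dbd, 24 FOXA1nhaa, 19 FOXA1rraa and 14 HNF4A peaks, and FOXA1nhaa then overlapped 20.6% of 34 FOXA1 peaks. The down-sampled FOXA1 list, for which a lower count is likewise built in, held 17 peaks at the 9 genes. Without the rows that are FOXA1 rows, FOXA1rraa overlapped 23.2% of the 82 FOXA1 peaks. In the central 100 bp, 13.4% of the FOXA1 peaks held a forkhead core. No share over all FOXA1 peaks at the same setting stands beside this value or the 20.6% for FOXA1nhaa. Nothing particular to the genes is read from either. Small counts limit all shares given per gene.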
